A study of Mus musculus with 18 samples.

Results

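The 10 genes described here are genes of hepatic gluconeogenesis and targets of the transcription factor FOXO1: *Pck1*, *G6pc*, *Fbp1*, *Pcx*, *Ppargc1a*, *Tat*, *Igfbp1*, *Irs2*, *Foxo1* and *Lpin1*. The list was given by symbol, with no threshold on measured values, and each symbol was matched to 1 Ensembl identifier. They are 10 of the 22524 genes listed for every mouse, and all 10 passed the filter on low counts. RNA-Seq was performed on liver of 10 A226Y mice and 8 WT mice, with 1 library per mouse, and all mice were females of the C57BL/6 strain aged 15 months.

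The A226Y mice were heterozygous for a knock-in of the ribosomal ambiguity mutation A226Y into *Rps2*, a gene of the small ribosomal subunit whose product helps to keep translation accurate. A stop cassette between loxP sites kept the mutant allele silent. The allele was made in 129/Sv embryonic stem cells and moved onto C57BL/6 by backcrossing. Cre under the ubiquitous CMV promoter removed the cassette, and the WT mice expressed Cre without the knock-in. The sources used here do not state whether each sampled A226Y mouse still carried the Cre transgene. Excision was partial, so the A226Y livers were mosaics of cells with the expressed mutant allele and cells with the silent loxP allele, which have a single active copy of *Rps2*. Effects of the mutation and of the lower gene dose cannot be told apart from these 2 groups. Mice carrying the loxP allele without Cre were not analysed here. Whether the mice were fed and at which hour the livers were taken is not given in the sources used here.

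Gluconeogenesis is the making of glucose from lactate, alanine and glycerol, and in the fasted animal it is mainly the work of the liver. Glucagon, acting through cAMP and CREB, and glucocorticoids raise the genes of its enzymes, with PGC-1α as a coactivator. Insulin acts the other way: AKT phosphorylates FOXO1, which then leaves the nucleus, and the transcription of FOXO1 targets falls. The members hold parts of each layer, namely 4 enzymes of the pathway (*Pck1*, *G6pc*, *Fbp1*, *Pcx*), the regulators *Foxo1* and *Ppargc1a*, and the fasting-induced genes *Tat*, *Igfbp1*, *Irs2* and *Lpin1*.

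Stretches of 5 member promoters are printed here to show where short motifs known from this regulation stand. They come from the RefSeq promoters of GRCm38.p6, which reach from 250 bases before to 50 bases after each transcription start. The 10 members have 11 such promoters. Capitals mark the core of the insulin response sequence in the first set (CAAAACA, or TGTTTTG on the other strand) and the cAMP response core in the second (TGACG, or CGTCA on the other strand). Each is written 5′ to 3′ on the gene's strand.
*Igfbp1*, chr11:7197669-7197695, plus strand: agctcacaagCAAAACAaacttatttt
*G6pc*, chr11:101367532-101367558, plus strand: tttgtgtgccTGTTTTGctattttacg
*Irs2*, chr8:11008950-11008976, minus strand: agtcacgtgtTGTTTTGctcttagttc
*Pck1*, chr2:173152973-173152997, plus strand: ctgccccttaCGTCAgaggcgagcc
*Ppargc1a*, chr5:51567760-51567784, minus strand: tgccctcccaCGTCActgagctcca

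The motif began 108 bases before the start in *Igfbp1*, 174 bases in *G6pc* and 37 bases in *Irs2*. These distances are counted from RefSeq's transcript starts, which differ from the gene ends of the GENCODE annotation given with each member. CAAAACA on either strand was found in 3 of the 11 member promoters and in 6.28% of all 32851 promoters of this length. TGACG on either strand was found in 2 of the 11, *Pck1* (90 bases before the start) and *Ppargc1a* (49 bases), and in 20.8% of all promoters. The forkhead core GTAAACA and the full cAMP response element TGACGTCA, which contains TGACG, were found in none of the 11 and in 3.65% and 1.79% of all promoters. The glucocorticoid response core TGTTCT was found in *Lpin1* alone among the members and in 19.0% of all promoters. A match of letters is not a bound site, and no binding was measured here.

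The deposited values were whole-number counts of reads per gene, with totals from 23850565 to 62126131 in A226Y mice and from 25869192 to 34918732 in WT mice. Levels are given as CPM, the counts of a gene per 1000000 counts of the library, after TMM scaling, which corrects library totals for composition. The changes are log2 fold changes, A226Y minus WT, with their standard error (SE), from edgeR's quasi-likelihood test over 13353 genes, with Benjamini-Hochberg adjustment over all of them. A call means an adjusted p under 0.05, and 14.3% of all tested genes were called. *Rps2* itself was at 68.6 ± 13.3 CPM (SD, n = 10) in A226Y mice and 114 ± 13 CPM (SD, n = 8) in WT mice, and the highest A226Y mouse (83.0) lay below the lowest WT mouse (104.0). The liver's defining gene *Alb* was between 48000 and 144000 CPM in every library. The 2 libraries numbered 29 (A226Y) and 33 (WT) were least like their own group: the median correlation of log2 CPM across genes with the other mice of the genotype was 0.9658 for mouse 29 and 0.9731 for mouse 33, against 0.9795 to 0.9887 for the other 16. Values that change without both are given beside the results they touch. In whole liver, fewer cells of a type and less RNA per cell cannot be told apart.

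Of the 10 members, 3 were higher in A226Y liver (*Igfbp1*, *Tat* and *Ppargc1a*) and 1 was lower (*Pcx*). Among all tested genes, 7.27% were called higher and 7.03% lower. The log2 fold change was above 0 for 8 of the 10 members and for 49.0% of all tested genes. The median was 0.41 over the members and -0.0044 over all tested genes. The 4 enzymes of the pathway did not move together: *Pck1* and *G6pc* had positive and *Fbp1* and *Pcx* negative fold changes, and among them *Pcx* was the gene called. Without mouse 29 and WT mouse 33, 2 members were called higher (*Igfbp1* and *Ppargc1a*) and 1 lower (*Pcx*), where 8.67% and 9.13% of all tested genes were called. With 4 surrogate variables estimated from the data as covariates, none of the members was called, where 0.374% of all genes were. DESeq2 called 4 members higher, adding *Irs2*, and 9.34% of all genes.

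**Figure D1:**
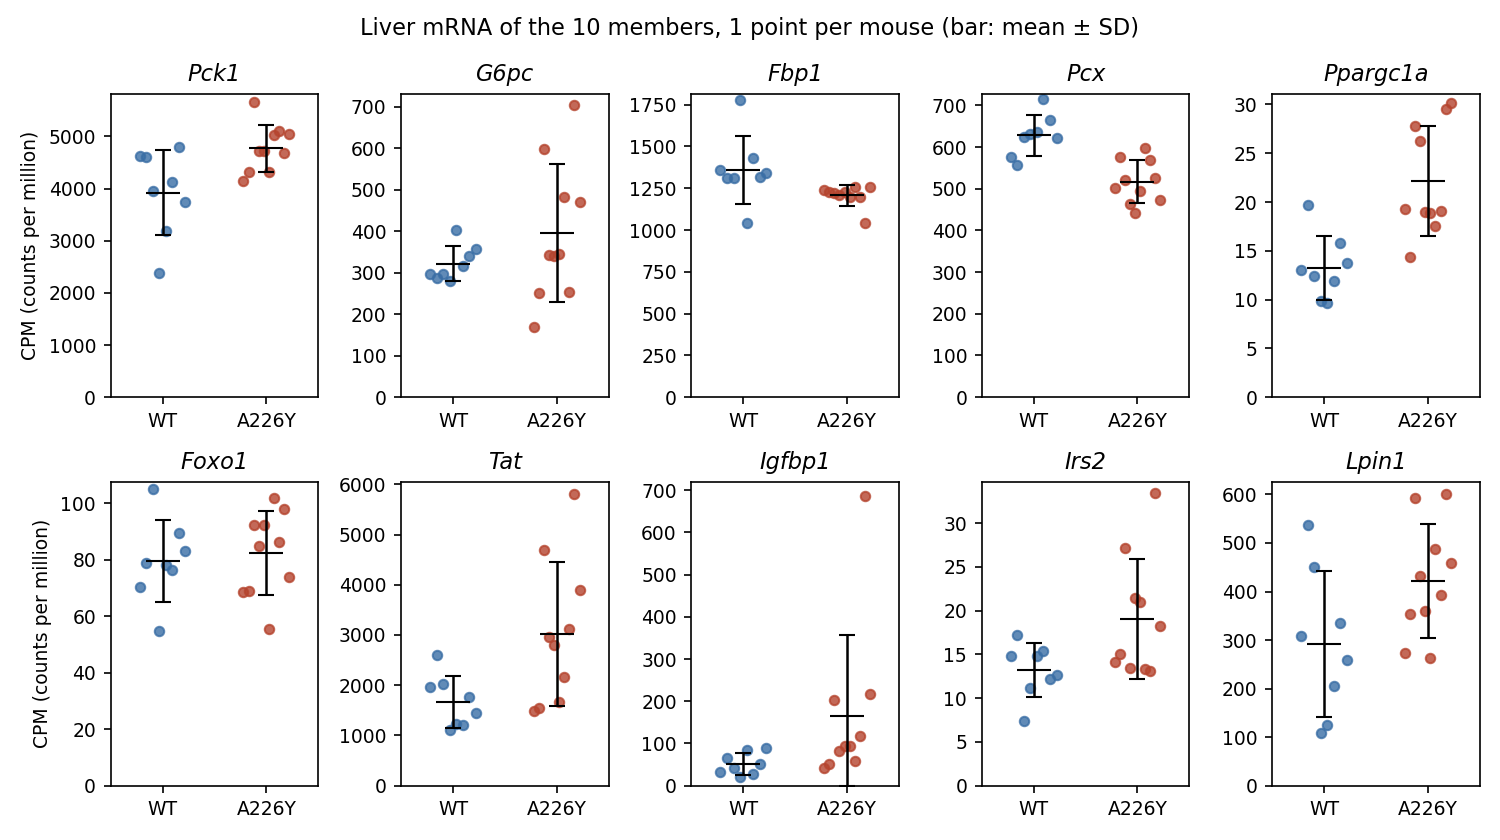
Level of each member in CPM (linear axes from 0) in the 8 WT mice (blue) and 10 A226Y mice (red), 1 point per mouse, with bars for the mean ± SD (the lower bar of *Igfbp1* in A226Y stops at 0). The 2 groups overlap for every member; *Pcx* is lower in most A226Y mice, while *Tat*, *Igfbp1* and *Ppargc1a* are spread upwards from the WT range.

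Levels were first compared between the members as CPM per kilobase, so that long and short genes stand on the same scale. The length was that of all annotated exons of a gene merged, which can exceed that of a single transcript. In WT liver *Pck1* was the most abundant, with a mean of 1140 CPM per kb (694 to 1400 over the 8 mice), followed by *Fbp1* with 800 (612 to 1050) and *Tat* with 694 (456 to 1090). *G6pc* with 133 (115 to 167) and *Pcx* with 132 (117 to 150) had nearly the same level. *Igfbp1* with 33.8 (13.3 to 57.9) and *Lpin1* with 30.1 (11.2 to 55.6) came next, then *Foxo1* with 9.18 (6.32 to 12.2). *Irs2* with 2.09 (1.18 to 2.72) and *Ppargc1a* with 2.01 (1.47 to 2.98) were the least abundant. The ranges of neighbours in this order overlapped except between *Tat* and *G6pc*, *Pcx* and *Igfbp1*, and *Foxo1* and *Irs2*. In A226Y liver the means of *Tat* (1250 CPM per kb) and *Fbp1* (711) stood in the opposite order, as did those of *Ppargc1a* (3.37) and *Irs2* (3.01).

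*Pck1* codes for the cytosolic phosphoenolpyruvate carboxykinase, which turns oxaloacetate into phosphoenolpyruvate (ENSMUSG00000027513, chromosome 2 of GRCm38, 173153048 to 173159273, plus strand). Its level in A226Y mice ran from 4140 CPM over a median of 4720 to 5660, and in WT mice from 2380 over 4040 to 4790. Each of the 10 A226Y mice exceeded the WT mean, and 4 exceeded the whole WT range. The log2 fold change was 0.28 (SE 0.11, 95% interval 0.05 to 0.52), with an edgeR adjusted p of 0.0953. A two-sided exact permutation test of log2 CPM, not adjusted over genes, gave p = 0.00692. The A226Y mice were also closer together, with an SD of log2 CPM of 0.14 against 0.34 in WT, where mouse 14 at 2380 CPM and mouse 21 at 3180 CPM were the lowest.

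*G6pc*, the catalytic subunit of glucose-6-phosphatase, carries out the last step before glucose leaves the hepatocyte (ENSMUSG00000078650, chromosome 11, 101367561 to 101377903, plus strand). Its level was between 169 and 705 CPM in A226Y mice (median 343) and between 279 and 404 CPM in WT mice (median 306). It was spread in both directions: 4 A226Y mice lay above every WT mouse, led by mouse 29 at 705 and mouse 7 at 597, and 3 lay below every WT mouse, the lowest being mouse 3 at 169. The SD of log2 CPM was 0.63 in A226Y and 0.18 in WT mice. The log2 fold change of 0.30 (SE 0.21, 95% interval -0.14 to 0.73) was within this spread (edgeR adjusted p = 0.352, exact permutation p = 0.428). It was 0.17 without mouse 29 (adjusted p = 0.559) and 0.19 without both mouse 29 and WT mouse 33 (adjusted p = 0.53).

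*Fbp1* codes for the liver fructose-1,6-bisphosphatase (ENSMUSG00000069805, chromosome 13, 62864753 to 62888282, minus strand). It was measured at between 1040 and 1260 CPM in A226Y mice (median 1230) and between 1040 and 1780 CPM in WT mice (median 1330). All 10 A226Y mice were below the WT mean, and 9 of them lay within the WT range. Its log2 fold change was -0.17 (SE 0.08, 95% interval -0.33 to -0.01), with an edgeR adjusted p of 0.153 and an exact permutation p of 0.0324. Its SD of log2 CPM was 0.08 in A226Y and 0.21 in WT mice, and WT mouse 14 stood highest.

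*Pcx*, pyruvate carboxylase, is the mitochondrial enzyme that makes oxaloacetate from pyruvate, for gluconeogenesis and for refilling the citric acid cycle (ENSMUSG00000024892, chromosome 19, 4510472 to 4621752, plus strand). The A226Y and WT ranges overlapped in part: it was between 442 and 599 CPM in A226Y mice (median 512) and between 556 and 715 CPM in WT mice (median 628). All 10 A226Y mice were below the WT mean and 7 were below every WT mouse. *Pcx* was lower in A226Y liver, at 0.822 of the WT level (log2 fold change -0.28, SE 0.07, 95% interval -0.43 to -0.14; edgeR adjusted p = 0.0125, exact permutation p = 0.000503). With any 1 mouse left out it stayed between -0.31 and -0.25, with an adjusted p of at most 0.0296. With the surrogate variables it was -0.16 (adjusted p = 0.366).

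*Ppargc1a* codes for PGC-1α, the coactivator through which fasting signals raise gluconeogenic and mitochondrial genes (ENSMUSG00000029167, chromosome 5, 51454250 to 51567726, minus strand). It was a gene of low level, between 14.4 and 30.1 CPM in A226Y mice (median 19.2) and between 9.67 and 19.7 CPM in WT mice (median 12.7). The WT mean was exceeded in 10 of 10 A226Y mice and the whole WT range in 4, namely mouse 32 (30.1), mouse 29 (29.5), mouse 7 (27.8) and mouse 11 (26.3). The mean was 22.2 ± 5.65 CPM (SD, n = 10) against 13.3 ± 3.27 CPM (SD, n = 8). *Ppargc1a* was higher in A226Y liver by 1.67-fold (log2 fold change 0.74, SE 0.16, 95% interval 0.42 to 1.07; edgeR adjusted p = 0.00539, exact permutation p = 0.000777). It kept its call with any 1 mouse left out (0.68 to 0.85, adjusted p at most 0.0137), and was 0.19 with the surrogate variables (adjusted p = 0.388).

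*Foxo1*, the gene of the forkhead factor itself, differed by less than the spread between mice (ENSMUSG00000044167, chromosome 3, 52268336 to 52353221, plus strand). It was found at between 55.6 and 102 CPM in A226Y mice (median 85.5) and between 54.8 and 105 CPM in WT mice (median 78.5). The log2 fold change was 0.05 (SE 0.12, 95% interval -0.20 to 0.30; edgeR adjusted p = 0.821, exact permutation p = 0.716). The activity of FOXO1 depends on its phosphorylation and place in the cell, which RNA does not show. The antisense gene *Gm20402* overlaps exons of *Foxo1* over 674 bases and is not in the lists of counts; the sources used here do not say whether counting used strand.

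*Tat* codes for tyrosine aminotransferase, a classic glucocorticoid- and cAMP-induced enzyme of the hepatocyte that feeds amino acid carbon into the pathway (ENSMUSG00000001670, chromosome 8, 109990437 to 109999803, plus strand). Its level was between 1480 and 5810 CPM in A226Y mice (median 2890) and between 1100 and 2610 CPM in WT mice (median 1610). In 6 of the 10 A226Y mice it was above every WT mouse, with mouse 29 (5810), mouse 7 (4690) and mouse 32 (3900) the highest, while mouse 3 (1480) and mouse 5 (1540) lay below the WT mean. *Tat* was higher in A226Y liver by 1.81-fold (log2 fold change 0.85, SE 0.26, 95% interval 0.31 to 1.39; edgeR adjusted p = 0.0331, exact permutation p = 0.0154). The call was lost when either of A226Y mice 7 and 32 or any of WT mice 14, 21, 24 and 33 was left out (0.70 to 0.97 over the 18 fits, adjusted p up to 0.0693). It was also lost without mouse 29 and WT mouse 33 together (0.67, adjusted p = 0.0645), and with the surrogate variables it was -0.04 (adjusted p = 0.943).

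*Igfbp1* codes for a secreted IGF-binding protein whose liver mRNA insulin holds down through FOXO1 (ENSMUSG00000020429, chromosome 11, 7197782 to 7202546, plus strand). Among A226Y mice it had the widest spread of the members, with an SD of log2 CPM of 1.19. In WT mice its SD was 0.76, below that of *Lpin1* at 0.82. Its level was between 42.9 and 685 CPM in A226Y mice (median 93.8) and between 20.4 and 88.4 CPM in WT mice (median 46.4). Mouse 29 had 685 CPM, mouse 32 had 217 and mouse 7 had 204, whereas the other 7 A226Y mice had 117 or less. In 6 of the 10 it was above every WT mouse. *Igfbp1* was higher in A226Y liver by 3.2-fold (log2 fold change 1.68, SE 0.49, 95% interval 0.65 to 2.70; edgeR adjusted p = 0.0283, exact permutation p = 0.0132). The size of this change rested in part on mouse 29, without which it was 1.05 and still called, and the call was lost when WT mouse 13, 14 or 24 was left out (adjusted p up to 0.0598). Without mouse 29 and WT mouse 33 it was 1.21 (adjusted p = 0.0238), and with the surrogate variables 0.42 (adjusted p = 0.596).

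*Irs2*, the adaptor that links the insulin receptor to PI3 kinase and is itself raised by FOXO1, did not pass the test (ENSMUSG00000038894, chromosome 8, 10984681 to 11008458, minus strand). *Irs2* mRNA was between 13.1 and 33.4 CPM in A226Y mice (median 16.6) and between 7.44 and 17.2 CPM in WT mice (median 13.7). The 5 A226Y mice above every WT mouse were 29 (33.4), 7 (27.1), 15 (21.5), 18 (21) and 32 (18.2), and the other 5 were at 15.1 or less. A log2 fold change of 0.52 (SE 0.19, 95% interval 0.13 to 0.92) had an edgeR adjusted p of 0.0691 and an exact permutation p of 0.0284. It was called by DESeq2 (adjusted p = 0.0342), with an offset for GC content (0.0402) and without WT mouse 6 (0.045). It was not called by limma-voom (0.47, adjusted p = 0.103), with the length offset (0.45, adjusted p = 0.126), without mouse 29 (0.39, adjusted p = 0.0963) or without both mouse 29 and WT mouse 33 (0.39, adjusted p = 0.126). An RNA of the opposite strand, *9530052E02Rik*, overlaps its exons over 162 bases.

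*Lpin1* codes for lipin 1, a phosphatidate phosphatase and coregulator that PGC-1α and glucocorticoids raise in the fasted liver (ENSMUSG00000020593, chromosome 12, 16535669 to 16610966, minus strand). *Lpin1* mRNA was between 263 and 601 CPM in A226Y mice (median 412) and between 108 and 538 CPM in WT mice (median 283). The WT mice were spread more widely, with an SD of log2 CPM of 0.82 against 0.41, since mouse 14 (108) and mouse 21 (125) were low. Of the A226Y mice, 8 exceeded the WT mean and 2 the whole WT range. The log2 fold change of 0.53 (SE 0.26, 95% interval -0.01 to 1.08) did not pass the test (edgeR adjusted p = 0.18, exact permutation p = 0.0367), and it was 0.44 without mouse 29 and WT mouse 33 (adjusted p = 0.284).

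**Figure D2:**
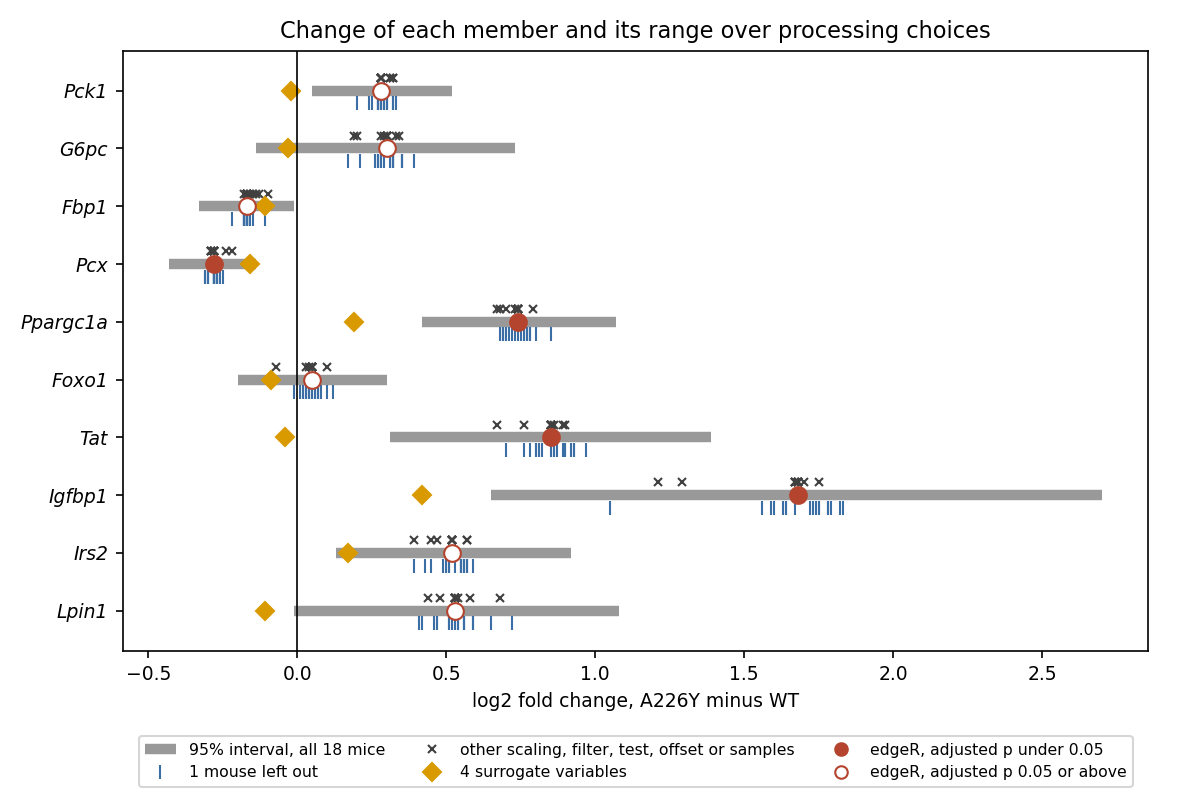
Log2 fold change of each member, A226Y minus WT (horizontal axis), with its 95% interval (grey bar), filled circles for members with an adjusted p under 0.05, ticks for the 18 fits that leave out 1 mouse, crosses for the other settings and diamonds for the fit with 4 surrogate variables. *Ppargc1a* and *Pcx* stay close to their values when any 1 mouse is left out; *Igfbp1* falls to 1.05 without A226Y mouse 29, and the diamonds lie nearer to 0 than the circles for all members but *Foxo1*.

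The mice that stood high were largely shared between the members. A226Y mice 7, 29 and 32 were the highest 3 of all 18 for *Tat*, *Igfbp1* and *Ppargc1a*, and mouse 29 was also the highest for *G6pc*, *Irs2* and *Lpin1* and the lowest for *Fbp1*. At the other end, WT mouse 14 was the lowest of all 18 for *Pck1*, *Tat*, *Igfbp1*, *Foxo1* and *Lpin1* and the highest for *Fbp1*. Set against the WT mean of log2 CPM, not of CPM as in the counts above, A226Y mouse 3 was above it for 4 of the 10 members, and mice 7, 11, 15, 22 and 29 for 8 of them. WT mice were above it for 2 to 8 members.

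To see which members varied together without the difference between genotypes, log2 CPM was correlated over the 10 A226Y mice and over the 8 WT mice separately, which gave 45 pairs in each and 90 tests. Pearson's r was positive in 32 of the 45 pairs in A226Y and in 25 of the 45 in WT mice. In A226Y mice *Tat* and *Igfbp1* had r = 0.90 (permutation p = 0.00011, adjusted 0.0099) and Spearman's rho = 0.90 (permutation p = 0.00075, adjusted 0.0513), and r was 0.84 without the 2 mice farthest from the median of *Tat*. In WT mice the same pair had r = 0.27 (exact permutation p = 0.513, adjusted 0.721) and rho = 0.36 (exact permutation p = 0.389, adjusted 0.687), and r = -0.31 without the 2 farthest. Whether the correlations differ between genotypes was not tested. In WT mice *Tat* and *Lpin1* had r = 0.94 (exact permutation p = 0.000347, adjusted 0.0156) and rho = 0.95 (exact permutation p = 0.00114, adjusted 0.0513), with r = 0.88 without the 2 farthest. *Tat* and *Lpin1* in A226Y mice had r = 0.85 (permutation p = 0.00251, adjusted 0.0599) and rho = 0.83 (permutation p = 0.00505, adjusted 0.151), with r = 0.74 without the 2 farthest. Of the 90 tests, 2 had an adjusted Pearson p under 0.05 (*Tat* with *Igfbp1* in A226Y and *Tat* with *Lpin1* in WT mice), and none had an adjusted Spearman p under 0.05.

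**Figure D3:**
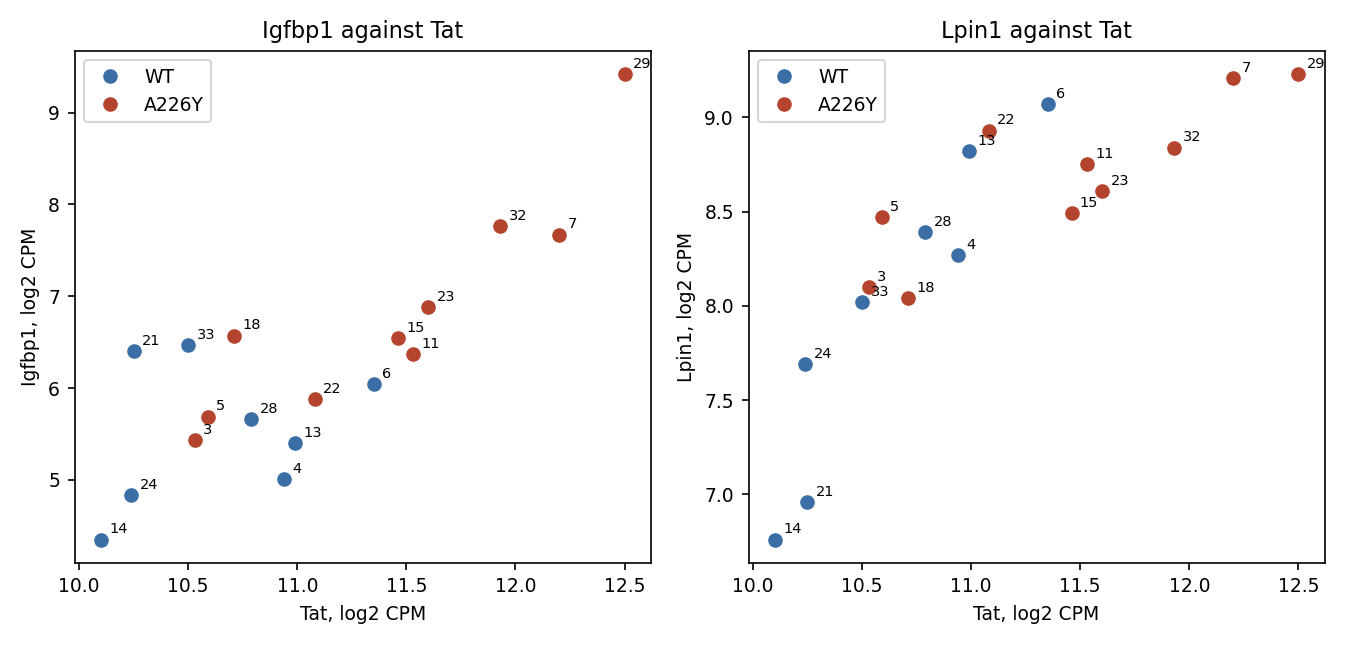
Log2 CPM of *Igfbp1* (left) and of *Lpin1* (right) against that of *Tat*, 1 point per mouse with its animal number, WT in blue and A226Y in red. Mice 7, 29 and 32 lie at the top right for *Igfbp1*, and mice 7 and 29 for *Lpin1*; in WT mice *Lpin1* follows *Tat* (r = 0.94) while *Igfbp1* does not do so visibly (r = 0.27).

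The other genes of these pathways were counted in lists chosen by role, with earlier results of these data known. Of 22 other gluconeogenic enzymes and carriers, 2 were higher and 0 lower (median log2 fold change 0.12). At an unadjusted p under 0.05, which 14.9% of all genes passed upwards and 14.7% downwards, they were 5 and 0, in DESeq2 3 and 0, and without mouse 29 and WT mouse 33 3 and 0. The 2 called were *Fbp2*, the muscle fructose-1,6-bisphosphatase (1.46, SE 0.29, adjusted p = 0.00398), which was at most 1.35 CPM in any mouse, and *Pgk1*, phosphoglycerate kinase (0.24, SE 0.07, adjusted p = 0.035). The list of alanine and serine supply also holds carriers of other amino acids and urea cycle genes. Of its 11 genes, 3 were higher and 0 lower (median 0.28; 6 and 0 at unadjusted p under 0.05, 4 and 0 in DESeq2, 2 and 0 without mouse 29 and WT mouse 33). These were *Sdsl*, a serine dehydratase-like enzyme (0.89, SE 0.20, adjusted p = 0.00801), the cationic amino acid carrier *Slc7a2* (0.68, SE 0.16, adjusted p = 0.00874) and the neutral amino acid carrier *Slc38a2* (0.48, SE 0.16, adjusted p = 0.0489). Among the alanine and serine enzymes of the list, only *Sdsl* was called. *Sdsl* was between 18.9 and 58.3 CPM in A226Y mice and between 12.6 and 25.3 CPM in WT mice, and 8 of the 10 A226Y mice were above every WT mouse.

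Of 18 genes of glucagon and cAMP signalling, 5 were higher and 1 lower (median 0.16; 5 and 2 without mouse 29 and WT mouse 33). They include the phosphodiesterase *Pde4d* (0.47, adjusted p = 0.0124), the adenylyl cyclase *Adcy9* (0.33, adjusted p = 0.033), the regulatory subunit *Prkar1a* of protein kinase A (0.17, adjusted p = 0.0361) and *Creb1* (0.24, adjusted p = 0.0381). Of 25 transcription factors and cofactors of fasting that could be tested, 2 were higher and 1 lower (median 0.03; 3 and 2 without mouse 29 and WT mouse 33): the deacetylase *Sirt1*, which acts on FOXO1 and PGC-1α (0.28, SE 0.06, adjusted p = 0.00866), the glucocorticoid-induced factor *Klf9* (0.48, adjusted p = 0.0238) and the hepatic forkhead factor *Foxa2* (-0.33, SE 0.08, adjusted p = 0.0148). Of 29 genes of insulin signalling from the receptor to AKT, 6 were higher and 1 lower (median 0.06), at an unadjusted p under 0.05 10 and 4, and without mouse 29 and WT mouse 33 10 and 2. The first 3 by adjusted p were kinases, *Pdpk1*, which phosphorylates AKT (0.38, SE 0.06, adjusted p = 0.000772), *Gsk3b* (0.26, SE 0.04, adjusted p = 0.002) and *Sgk1* (0.62, SE 0.15, adjusted p = 0.00935), and the fourth was the receptor phosphatase *Ptprf*, which was lower (-0.32, adjusted p = 0.0143).

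Of 21 other FOXO1 targets tested, 2 were called higher and 3 lower, and 14 had a log2 fold change above 0 (median 0.08). At an unadjusted p under 0.05 they were 8 and 4, and without mouse 29 and WT mouse 33 the calls were 5 and 3. The triglyceride lipase *Pnpla2* was higher (0.54, SE 0.12, adjusted p = 0.00654) and exceeded every WT mouse in 8 of the 10 A226Y mice. The translation inhibitor *Eif4ebp1* (-0.33, adjusted p = 0.00253), the growth-arrest gene *Gadd45a* (-0.77, adjusted p = 0.0142) and the coregulator *Cited2* (-0.36, adjusted p = 0.0417) were lower. *Pdk4*, a pyruvate dehydrogenase kinase named after its values were seen, ran from 11.7 to 44.3 CPM in A226Y mice and from 6.33 to 21.4 CPM in WT mice, and its log2 fold change of 0.81 (SE 0.32) had an adjusted p of 0.0862. Of 8 lipins and other enzymes of phosphatidate and triglyceride turnover, 4 were higher and 1 lower (median 0.17), among them *Lpin2* (0.55, SE 0.13, adjusted p = 0.0103), *Gpam*, which begins glycerolipid synthesis (0.29, adjusted p = 0.0229), and, lower, the triglyceride-forming *Dgat2* (-0.46, SE 0.10, adjusted p = 0.00569). Of 11 genes of the IGF axis, 0 were higher and 2 lower (median -0.20; 0 and 6 at unadjusted p under 0.05, 0 and 5 in DESeq2, 0 and 3 without mouse 29 and WT mouse 33): *Igfals*, which holds IGF in its serum complex (-0.66, SE 0.09, adjusted p = 0.000701), and the growth hormone receptor *Ghr* (-0.59, SE 0.12, adjusted p = 0.00363).

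Genes that insulin and feeding raise lay on the other side of 0. The log2 fold change was below 0 for all 14 (median -0.57), and 8 were called lower, against 7.03% of all tested genes. Because this list was chosen with earlier results of these data known, the count is not independent support. *Thrsp*, a lipogenic gene, had a log2 fold change of -2.11 (SE 0.39, adjusted p = 0.00285), *Mlxipl*, which codes for the carbohydrate-responsive factor ChREBP, -0.53 (SE 0.11, adjusted p = 0.00389), *Srebf1*, the gene of the insulin-responsive lipogenic factor SREBP-1, -1.22 (SE 0.26, adjusted p = 0.00551) and *Pklr*, liver pyruvate kinase, -0.75 (SE 0.19, adjusted p = 0.0139). *Srebf1* was between 42.3 and 158 CPM in A226Y mice and between 114 and 314 CPM in WT mice, and 8 of 10 A226Y mice were below every WT mouse. The A226Y mice highest for *Tat* and *Igfbp1* were the lowest for *Srebf1*, with 42.3 CPM in mouse 7, 43.7 in mouse 32 and 47.0 in mouse 29. Other genes of the list did not follow this order: *Thrsp* was lowest in mice 15 (20.3 CPM) and 18 (21.2) and stood at 55.5 in mouse 29, above the A226Y median of 43.1, and *Mlxipl* was lowest in mouse 23 (62.9). With 4 surrogate variables none of the 14 was called.

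**Figure D4:**
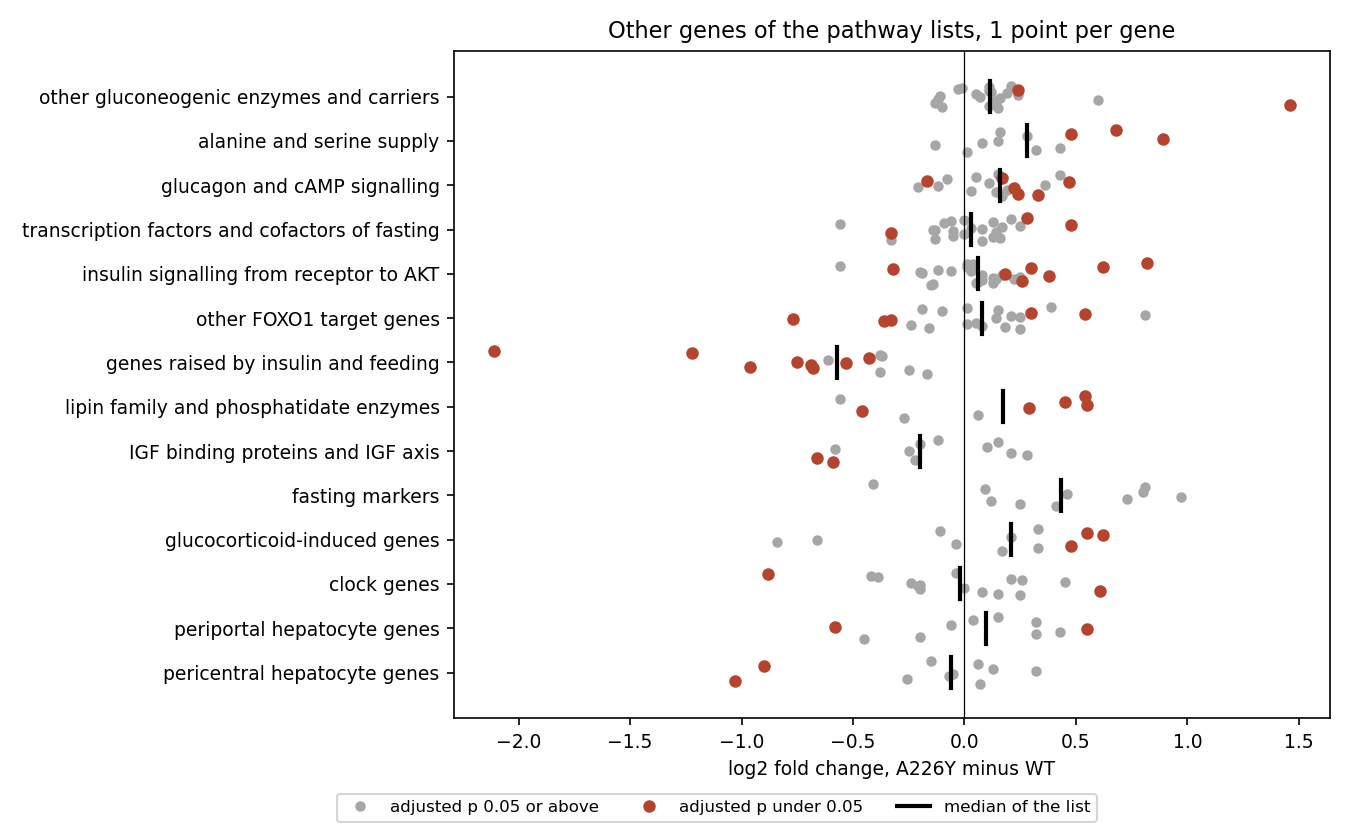
Log2 fold change, A226Y minus WT (horizontal axis), of every tested gene in the 9 pathway lists and 5 lists of feeding state, hormone, clock and lobule position (rows), with red points for an adjusted p under 0.05 and a black line at each list's median. The genes raised by insulin and feeding all lie below 0 (median -0.57), the fasting markers have the highest median (0.43) with none called by edgeR when all 18 mice are used, and the other lists lie on both sides of 0.

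Lists of feeding state, hormone response, time of day and lobule position were measured in the same libraries, and their part in the members' changes was not tested. Of 10 fasting markers such as *Fgf21* and *Cpt1a*, 9 had a positive log2 fold change (median 0.43), 0 were called higher and 0 lower, 5 and 0 passed an unadjusted p under 0.05, and DESeq2 called 3 higher and limma-voom 1. Without mouse 29 and WT mouse 33, edgeR called 3 of the 10 higher. Their summed level was between 8540 and 19800 CPM in A226Y mice and between 4820 and 14500 CPM in WT mice. Of 11 glucocorticoid-induced genes 3 were higher and 0 lower (median 0.21; 3 and 0 at unadjusted p under 0.05, while DESeq2 called 3 higher and 1 lower, and without mouse 29 and WT mouse 33 edgeR called 3 higher and 2 lower): *Tdo2*, tryptophan dioxygenase (0.55, SE 0.12, adjusted p = 0.00556), with *Sgk1* and *Klf9*. Of 16 clock genes tested 1 was higher, *Clock* (0.61, SE 0.09, adjusted p = 0.000932), and 1 was lower, with a median of -0.02 (2 higher and 1 lower without mouse 29 and WT mouse 33). Of 10 periportal genes, from the zone where gluconeogenesis is strongest, 1 was higher, the urea cycle gene *Cps1* (0.55, adjusted p = 0.0137), and 1 lower, *Cyp2f2* (-0.58, adjusted p = 0.0173), and of 10 pericentral genes 2 were lower, *Rgn* (-0.90, adjusted p = 0.000932) and *Cyp1a2* (-1.03, adjusted p = 0.00601).

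Markers of the cell types that a piece of liver can hold were summed per library, and their part in the members' changes was not tested either. Hepatocyte markers summed to between 104000 and 172000 CPM in A226Y mice and between 115000 and 215000 CPM in WT mice, with 1 of 8 called higher (1 higher and 1 lower without mouse 29 and WT mouse 33). Kupffer cell markers summed to between 269 and 1060 CPM in A226Y and between 404 and 817 CPM in WT mice, with 1 of 7, *Clec4f*, called lower (-0.65, adjusted p = 0.0261). Of these 7, 1 had a log2 fold change above 0 (median -0.42), 3 were lower at an unadjusted p under 0.05, DESeq2 called 2 lower, and without mouse 29 and WT mouse 33 edgeR called 4 lower. Of the 6 stellate cell markers 1 was called lower, and their sums overlapped (387 to 462 and 364 to 457 CPM). The edgeR test called none of the markers of endothelial cells (6), cholangiocytes (5), B and plasma cells (7), T and NK cells (6), erythroid cells (5) and exocrine pancreas (2 tested), of which 1 endothelial, 1 cholangiocyte and 1 T and NK cell marker had an unadjusted p under 0.05 and DESeq2 called none. The fit with 4 surrogate variables called 1 cholangiocyte marker higher. Negative log2 fold changes were found for all 7 B and plasma cell markers (median -0.74), all 6 T and NK cell markers (median -0.40) and all 5 erythroid markers (median -0.45). The adipocyte marker *Adipoq* was at most 0.837 CPM in any mouse, and of that list the lipid-droplet gene *Cidec*, also made by fat-laden hepatocytes, was the one gene tested and was higher (1.67, SE 0.40, adjusted p = 0.0109).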

How the data were processed

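Liver RNA of 10 A226Y and 8 WT mice was analysed, grouped by GEO's labels. The authors deposited unnormalized whole-number counts for each Ensembl gene and mouse. The paper's methods name RSEM with an Ensembl annotation, whereas the submitters' processing notes list bcl2fastq, MultiQC, fastp, STAR, featureCounts and GRCm38, and which of them gave the counts is not stated. Whether counting used strand is not given in the sources used here, so overlapping genes are uncertain.

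Of the 22524 identifiers, 22214 were matched to GENCODE M21 (GRCm38). A gene was tested if 50% or more of the mice of either genotype reached 10 counts (13353 genes), with edgeR 4.0.16 in R 4.3.3 (TMM, quasi-likelihood, no covariates, Benjamini-Hochberg). The SE is the log2 fold change divided by the square root of F. Exact permutation tests used log2 CPM (prior count 2) over all 43758 divisions into 10 and 8, so that the smallest possible p is 2.29e-05. Correlation p-values were exact for 8 mice and drawn 100000 times for 10. At these depths the spread between mice limits the precision. No 2 mice of a genotype had counts alike within sampling noise (chi-square per degree of freedom at least 19.2 over 73 pairs).

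Named are *Rps2*, the members and, from each pathway or state list, the called genes, at most 4 by adjusted p. Members and lists were chosen with earlier results of these data known. Alternatives were other scalings, filters and tests (DESeq2 1.42.0, limma-voom 3.58.1), length and GC offsets, 4 surrogate variables (sva 3.50.0), leaving out each mouse, and, chosen after seeing the data, leaving out both A226Y mouse 29 and WT mouse 33. The procedures were tested on simulated counts. Of the list symbols, 275 of 277 were matched. A few called genes of the lists are left unnamed and not reported here.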

Additional observations from a re-analysis of the deposited data

Results flagged for a closer look

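The highest and lowest mouse of each genotype was compared with the other mice of that genotype for each member, by the gap to the nearest mouse over the group's range, in 20 groups. At a threshold that chance passes in about 1 of 20 groups, 2 were passed, both by A226Y mouse 29. *Igfbp1* was 685.0 CPM in mouse 29, far above the next A226Y mouse at 217.0 (gap 0.729 of the range). *Fbp1* was 1040.0 CPM in mouse 29, below the next A226Y mouse at 1200.0 (gap 0.715 of the range). This is also the library least like its own group across all genes, and its part in these values was not tested.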

How the results depend on the processing

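Direction and call were kept by *Ppargc1a* and *Pcx* in the 11 settings other than surrogate variables and single mice left out (log2 fold change 0.67 to 0.79 and -0.29 to -0.22) and in all 18 fits without 1 mouse. With 4 surrogate variables, 0 members were called higher and 0 lower, 29 of all genes were called higher and 21 lower, 0 genes of the 14 pathway and state lists together were called higher and 1 lower, and 0 of the insulin- and feeding-raised genes were called lower. In that fit *Pck1* was -0.02, *G6pc* -0.03, *Tat* -0.04, *Foxo1* -0.09 and *Lpin1* -0.11, against positive values in the main analysis; the cause was not tested. *Foxo1* was also -0.07 with the length offset and -0.01 without WT mouse 14 (-0.01 to 0.12 over the 18 fits without 1 mouse). Leaving out 1 mouse gave 1 to 4 members called higher and 1 lower, 633 to 1268 genes called higher and 622 to 1372 lower, 15 to 35 genes of those 14 lists called higher and 16 to 28 lower (25 and 21 with all mice), and 5 to 8 insulin- and feeding-raised genes called lower. The lowest member count was without WT mouse 14 or 24. With library size only as the scaling, 1399 genes were called higher and 660 lower, and the median log2 fold change was 0.04 over all genes and 0.45 over the members. Without a filter on low counts 1605 of 17889 genes were called. No paired analysis was possible because the replicate numbers are animal numbers and none is shared between the genotypes. With 10 and 8 mice and the wide spread of *Igfbp1*, *Tat* and *Lpin1*, intervals of these members remain broad.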
